A study of Mus musculus with 7 samples.

Results

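Mononuclear phagocytes of the adult mouse heart, the cells of the monocyte and macrophage lineage, were compared between 1 library from infarcted myocardium (WT 8 week MI) and 1 library from sham-operated hearts (WT 8 week sham). A barcode was kept as a mononuclear cell if it had at least 500 UMIs (unique molecular identifiers, each a counted RNA molecule), at least 300 genes and a mitochondrial share of at most 15%. It also needed at least 3 UMIs of Lyz2, at least 1 UMI of Csf1r, Adgre1 or Ccr2, no UMI of Cd79a or Cd3e, and less than 1% of its UMIs from S100a8 and S100a9. The rule kept 1899 of the 3182 deposited barcodes of the MI library and 1679 of the 16379 of the sham library, 3578 of the 44318 barcodes of the 7 libraries of the series. A kept cell was called C1q-high with at least 10 UMIs of C1qa, C1qb and C1qc together and C1q-low otherwise, which gave 1446 and 453 cells in MI and 875 and 804 in sham.

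Both groups were C57BL6/J mice of 8 weeks with no engineered allele, and differed by label only in the operation, MI (myocardial infarction) or sham. The hearts had been perfused and digested with collagenase, red cells had been lysed and dead cells removed, and CD45-selected leukocytes had been mixed back with the unselected cells at a ratio of 2 to 1. Shares of cells therefore describe this mixture and not the tissue. The labels used here give neither the time after surgery nor the number of hearts in a library, and with 1 library a side no difference has a replicate check or a test. Levels are CPM, the UMIs of a gene summed over the cells of a group and scaled to a common total, after each cell was thinned at random to 1500 UMIs. Intervals in brackets are exact Poisson intervals for CPM and exact binomial (Clopper-Pearson) intervals for shares, at 95%, and cover counting error only.

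The adult heart holds macrophages that settled there before birth and are kept up by local division, alongside cells that derive from blood monocytes. Resident cells are known for complement C1q, which tags dying cells for uptake, and for Lyve1, Folr2 and Mrc1. After an infarct, Ly6C-high monocytes enter in large numbers, clear dead muscle and give rise to macrophages, in which genes of lysosomal digestion, lipid handling and matrix repair are commonly described.

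The MI library stood apart from the other 6 of the series, and each ratio below rests on it. Cell barcodes of these kits come from a fixed list that changed between kit versions. Of the 3182 barcodes of the MI library, 2333 (73.3%) began with a run of 6 letters that began none of the 41136 barcodes of the other 6 libraries, and the same count was 0 in each of those 6. Its cells were also shallower, with a median of 2324 UMIs against 11140 in the sham pool, and thinning left out 385 of its 1899 cells (20.3%) and 32 of 1679 sham cells (1.91%). In C1q-low cells the loss was 169 of 453 (37.3%) and 26 of 804 (3.23%). The infarct and the barcode list cannot be told apart in this comparison. The labels give every library the same choice of kit versions. The 2 libraries shared 1 barcode. The other 5 libraries, labelled P1 (from WT or MerTK KO hearts, sham or MI), serve below only to place the 2 adult ones.

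The distance between the 2 libraries was also read in other cells. Barcodes with at least 5 UMIs of Col1a1, Col3a1 and Dcn and none of Csf1r, Adgre1, Ccr2, Cd79a or Cd3e, here called fibroblast-rule barcodes, numbered 147 in MI and 1609 in sham at 1500 or more UMIs. Among genes with a mean of at least 200 CPM, 303 of 748 (40.5%) were at least 2-fold apart between the libraries in these barcodes, and 277 of 681 (40.7%) were in the mononuclear pool. The same rule and thinning between the 2 libraries labelled WT P1 MI, of 90 and 967 cells, put 68 of 734 genes (9.26%) at least 2-fold apart. Several broadly expressed genes show the pattern. Scand1 was at 4.84 CPM in the MI pool and 328 in the sham pool, and at 13.6 and 199 in fibroblast-rule barcodes. Nutf2, a nuclear import factor, was at 87.2 CPM in the MI pool with no UMI in the sham pool, and at 145 and 0.829 CPM in fibroblast-rule barcodes. Gm42418, a locus known to collect ribosomal RNA reads, was at 225 and 34530 in the pool, and at 404 and 31370 in fibroblast-rule barcodes. A gene is called library-wide below where it was at least 2-fold apart the same way in fibroblast-rule barcodes, with at least 10 UMIs there and a level of at least 25% of that in the compared cells of the library where it was higher (for lower genes also a mean of at least 50 CPM there). Of 416 such genes of the pool with a mean of at least 50 CPM in fibroblast-rule barcodes, the MI library lay outside the range of the other 6 libraries' fibroblast-rule barcodes for 395 (94.95%), and the sham library for 119 (28.6%). These genes were picked by the MI to sham ratio of the same values, which favours such extremes. The 2 shares also rest on unequal numbers, 147 barcodes in MI and 1609 in sham. They are a description only, and the share over all genes is not given. For a gene that fibroblasts do not express, no such reading exists.

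**Figure D1:**
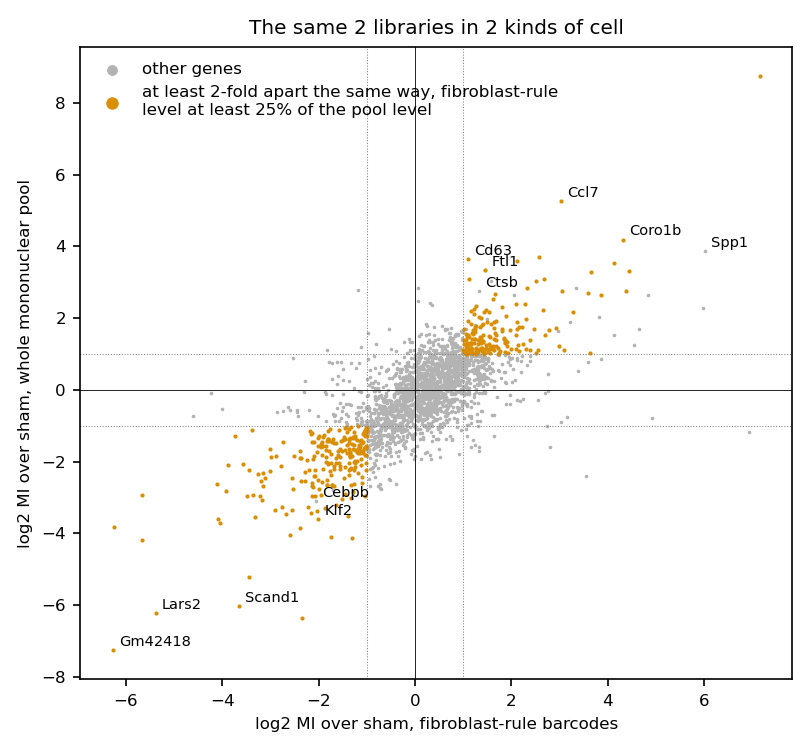
Log2 ratio of CPM, MI over sham, of each gene in the whole mononuclear pool (vertical axis) against the same ratio in fibroblast-rule barcodes of the same libraries (horizontal axis). Each point is a gene, dotted lines mark 2-fold, and orange points are library-wide genes; Coro1b, Scand1, Lars2 and Gm42418 lie far out along both axes, and Spp1 is far out on both with a fibroblast-rule level under 25% of the pool's.

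RNA of myeloid genes in barcodes of other cells also differed between the libraries. Lyz2, the lysozyme gene of myeloid cells, was at 726 CPM in MI fibroblast-rule barcodes and 22320 CPM in the MI pool, and at 60.1 and 13130 CPM in sham. Of 128 MI barcodes with at least 2 UMIs of Cd79a or Cd3e, 71 (55.5% [46.4 to 64.3]) had 3 or more Lyz2 UMIs and 55 (43.0% [34.3 to 52.0]) met both myeloid cuts of the rule. In sham, 677 of 5509 (12.3% [11.4 to 13.2]) and 609 (11.1% [10.2 to 11.9]) did, at a median depth of 3469 UMIs against 1624 in MI. The absence of Cd79a and Cd3e UMIs in kept cells removes such barcodes only as far as depth shows those genes. Of 195 MI barcodes with the fibroblast markers, 25 (12.8%) met both myeloid cuts, against 78 of 1851 (4.21%) in sham. Free RNA and doublets among the kept cells were not told apart.

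Markers of other lineages were present in the pools. Leaving out cells with RNA of fibroblasts, endothelial cells, dendritic cells or lymphocytes cut the sham pool from 1679 to 1028 cells and the MI pool from 1899 to 1771. The 12 fibroblast markers summed to 843 CPM in MI and 1696 in sham (against 6379 and 1441 for the resident macrophage list), the 15 neutrophil markers to 451 and 382, and the 12 T and NK markers to 52.4 and 259. The 10 B cell markers summed to 816 CPM in MI, of which Igkc, the kappa light chain of antibodies, made up 629, and to 164 in sham. The neutrophil, T and NK, and B cell lists hold S100a8, S100a9, Cd3e and Cd79a, which the rule caps or excludes. Their sums, here and below, are partly set by the selection. The 12 endothelial markers summed to 80.1 in MI and 672 in sham, where Fabp4, a fatty acid carrier that monocytes and macrophages also use, gave 486. Cardiomyocyte markers summed to 8.81 and 63.5, and mast cell markers to 0.881 and 5.67 CPM.

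The C1q-high share differed between the pools. As deposited, 76.15% of MI cells [74.2 to 78.1] and 52.1% of sham cells [49.7 to 54.5] were C1q-high, although the sham cells were far deeper. Among cells of at least 1500 UMIs the shares were 81.2% [79.2 to 83.2] and 52.8% [50.3 to 55.2]. After thinning to 1500 UMIs in every cell, 1116 of 1514 MI cells (73.7% [71.4 to 75.9]) and 458 of 1647 sham cells (27.8% [25.7 to 30.0]) still had 10 or more C1q UMIs. The median cell then held 21 C1q UMIs in MI and 2 in sham, and no C1q UMI was seen in 6.80% of MI and 43.9% of sham cells. Cells near the threshold, with 8 to 11 C1q UMIs as deposited, numbered 75 in MI and 26 in sham. The 3 chains were apart by unequal folds: C1qa was at 3659 CPM in MI and 1554 in sham, C1qb at 5997 and 1842, and C1qc at 5042 and 1030. The split used deposited counts, and the MI C1q-low cells carried C1qb at 615 CPM against 53.1 in sham C1q-low cells. Adgre1, which encodes F4/80, was at 422 and 189 CPM, Csf1r, the CSF-1 receptor, at 457 and 503, and Ccr2, the receptor that brings monocytes from marrow and blood, at 180.1 and 281. All of these genes belong to the selection rule and are given as a description.

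**Figure D2:**
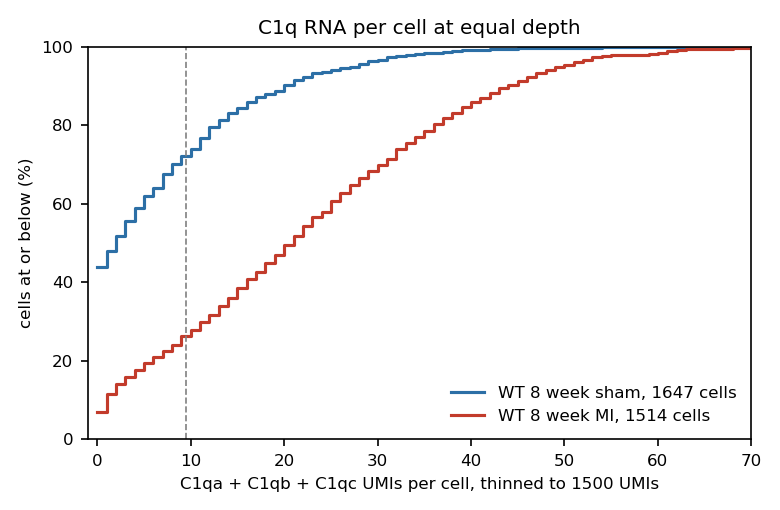
Share of mononuclear cells (vertical axis, percent) with at most the given number of C1qa, C1qb and C1qc UMIs (horizontal axis) after thinning each cell to 1500 UMIs, for the MI (red) and sham (blue) library; the dashed line lies just below the cut of 10 UMIs. The sham curve starts at 43.9% at 0 UMIs and the MI curve at 6.80%.

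Across the whole pool, 599 of 5052 genes with a mean of at least 20 CPM (11.9%) were at least 2-fold higher in MI and 1098 (21.7%) at least 2-fold lower. The median gene had a log2 ratio of -0.17, and with ratios centred on it 790 were higher and 881 lower, so that the higher share of such genes went from 35.3% to 47.3%. Of the higher genes 239 were library-wide and of the lower ones 230, which leaves 360 and 868 that were not. The account below gives list counts against these backgrounds, and marks each library-wide gene it names. In C1q-high cells 527 of 5091 genes (10.4%) were at least 2-fold higher and 1160 (22.8%) lower, around a median of -0.21. Centred on it, 787 were higher and 878 lower, which took the higher share from 31.2% to 47.3%. In C1q-low cells 925 of 5019 (18.4%) were higher and 1066 (21.2%) lower, around a median of -0.01. Library-wide genes numbered 203 of the higher and 236 of the lower ones in C1q-high cells, and 310 and 218 in C1q-low cells.

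Genes of lipid-laden, matrix-repairing macrophages were among the highest ratios of the MI pool. Spp1 (chr5:104435118-104441050, plus strand, GRCm38), which encodes the secreted matrix protein osteopontin, was at 12130 CPM in MI [11990 to 12270] and 826 in sham [791 to 863], 14.7-fold higher. Both fractions were apart, at 12540 against 1336 CPM in C1q-high and 10330 against 257 in C1q-low cells. MI fibroblast-rule barcodes held 576 CPM of Spp1, far below the MI pool, and the pools of the 5 P1 libraries held 31.9 to 470.2 CPM. Gpnmb, a lysosomal membrane glycoprotein of lipid-loaded macrophages, was at 396 and 13.8 CPM. Mmp12, the macrophage elastase, was at 280.5 and 6.88 CPM, and Lgals3, the lectin galectin-3, at 4410 and 1183. Trem2, a lipid-sensing receptor, was at 965 and 255 CPM. Of the 21 measured genes of this program, 12 were at least 2-fold higher and 1 lower, with a median of 1.57 against -0.17 for all genes, and 1 of the higher genes and the lower one, Fabp4, were library-wide. That higher gene was Cd63, a tetraspanin of late endosomes, at 2002 and 159.5 CPM. Apoe, the carrier that takes cholesterol out of the cell, did not follow, at 6392 and 9214 CPM. Its levels in fibroblast-rule barcodes were 231 CPM in MI and 3750 in sham.

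Lysosomal genes were high together. Of 28 measured, 15 were at least 2-fold higher in MI and none lower, with a median of 1.18, and 2 of the 15 were library-wide. Ctsb, encoding the protease cathepsin B, was at 8379 CPM in MI [8260 to 8499] and 1236 in sham [1192 to 1280]. It was also high in the C1q-high cells, at 9335 and 1521 CPM, and in C1q-low cells, at 4237 and 918. Lgmn, the asparagine-cleaving protease legumain, was at 2429 and 338 CPM. Ctsd, encoding cathepsin D, was at 3598 and 1112, and Ctss, encoding cathepsin S, at 5091 and 1760. Psap, whose product prosaposin feeds lipid breakdown, was at 4389 and 1635 CPM, and Grn, encoding progranulin, at 1415 and 477. In fibroblast-rule barcodes Ctsb (980 and 391 CPM), Ctsd (662 and 319.5), Ctss (190.5 and 10.8) and Lgmn (463 and 45.6) were also at least 2-fold higher in MI. They missed the library-wide label only because these levels were too low a share of the pool's. Psap, at 676 and 411, and Grn, at 227 and 210.5, were within 2-fold there. The part of this shift in the pool ratios was not tested. The membrane genes Lamp1, at 454 and 591 CPM, and Laptm5, at 713 and 1267, had lower levels in MI within 2-fold. Tfeb, a regulator of lysosome genes, was at 14.1 and 28.3, at the 2-fold line and just inside it with 0.5 UMIs added.

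Promoters are shown for 4 genes of the lists with high ratios in MI, as 250 bases before and 50 after the start, 5′ to 3′ on the gene's strand, from RefSeq on GRCm38.p6. Capitals mark matches on either strand to CACGTG (the E-box core that TFEB reads), TATAAA (the TATA box), TGACTCA (AP-1) or the NF-kappaB consensus. Ctsd lies on the minus strand at chr7:142387778-142388077, Cxcl2 on the plus strand at chr5:90903649-90903948, and Ccl12 and Ccl8 on the plus strand at chr11:82101595-82101894 and chr11:82114935-82115234.
Ctsd promoter: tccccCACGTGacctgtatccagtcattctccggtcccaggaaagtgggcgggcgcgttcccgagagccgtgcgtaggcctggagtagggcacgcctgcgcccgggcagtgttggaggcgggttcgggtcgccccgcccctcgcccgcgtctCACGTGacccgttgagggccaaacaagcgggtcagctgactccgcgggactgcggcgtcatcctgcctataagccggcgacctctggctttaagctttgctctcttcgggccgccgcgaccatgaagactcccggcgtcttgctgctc
Ccl12 promoter: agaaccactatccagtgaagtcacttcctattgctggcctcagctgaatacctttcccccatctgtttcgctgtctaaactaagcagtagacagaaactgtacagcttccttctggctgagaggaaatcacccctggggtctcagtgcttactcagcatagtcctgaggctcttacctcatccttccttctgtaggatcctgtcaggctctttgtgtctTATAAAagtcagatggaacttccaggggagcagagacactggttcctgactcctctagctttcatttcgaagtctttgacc
Ccl8 promoter: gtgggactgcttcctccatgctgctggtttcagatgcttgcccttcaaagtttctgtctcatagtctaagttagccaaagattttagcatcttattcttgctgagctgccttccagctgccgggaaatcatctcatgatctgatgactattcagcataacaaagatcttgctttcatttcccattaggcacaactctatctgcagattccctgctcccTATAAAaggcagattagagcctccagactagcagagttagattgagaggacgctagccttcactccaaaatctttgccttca
Cxcl2 promoter: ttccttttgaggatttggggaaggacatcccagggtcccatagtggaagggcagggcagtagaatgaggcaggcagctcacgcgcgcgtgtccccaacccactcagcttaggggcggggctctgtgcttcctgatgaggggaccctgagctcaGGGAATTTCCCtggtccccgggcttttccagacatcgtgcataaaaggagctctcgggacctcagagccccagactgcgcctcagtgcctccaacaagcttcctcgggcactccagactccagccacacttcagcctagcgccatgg
CACGTG was found in the windows of 2187 of 27025 genes with a RefSeq promoter (8.09%) and of 9 of the 23 lysosome-list genes that have one (Atp6v1a, Ctsa, Ctsd, Ctsl, Gla, Glb1, Lamp1, Lgmn and Mcoln1). Ctsd holds 2 matches. TATAAA was in 15.7% of all genes and in Ccl12 and Ccl8, TGACTCA in 5.95% and in none of the 4 shown, and the NF-kappaB consensus in 5.14% and in 5 of 13 chemokine genes, Cxcl2 among them with matches on both strands at 1 place. Of these 9 lysosome genes, 5 (Ctsa, Ctsd, Ctsl, Gla and Lgmn) were at least 2-fold higher in the MI pool and 4 were not. That share is near the one of the whole lysosome list, 15 of 28 measured. No entry was found for Ccl2 or Ccl7. A match describes letters and does not show that a factor binds.

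Chemokine genes formed the other group of large ratios, with 13 of 18 measured at least 2-fold higher, 3 lower and a median of 1.66. The monocyte-attracting ligands of CCR2 and their neighbours on chromosome 11 led. Ccl7 was at 1566 CPM in MI [1515 to 1619] and 40.9 in sham [33.3 to 49.7], and Ccl2 at 1152 and 88.7. Both were library-wide, as was Cxcl14 among the lower genes. They stood at 648 against 79.5 and 431 against 72.9 CPM in fibroblast-rule barcodes, a cell type that also makes these chemokines. Ccl12 was at 349 CPM [325 to 374] and 3.24 [1.4 to 6.38], and Ccl8 at 424 and 7.69, with 13.6 and 22.7 CPM in MI fibroblast-rule barcodes. The P1 pools held 0 to 13.8 CPM of Ccl8 and 17.4 to 236 of Ccl12. Ccl6 was at 3317 and 1067 CPM and Pf4, the platelet factor 4 gene that resident macrophages also express, at 2280 and 363. The 3 lower genes were Cxcl10, an interferon-induced chemokine for T cells, at 23.8 and 71.7 CPM, Ccl17, a dendritic cell chemokine, at 7.04 and 33.2, and Cxcl14, a chemokine that fibroblasts make, at 11.9 and 51.

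Resident macrophage genes were higher in the MI pool in 12 of 17 measured, with 1 lower (Vsig4) and a median of 1.31, and none of the 12 was library-wide. Genes that fibroblasts do not express cannot meet the library-wide rule, so the lack of that label says nothing about them. Fcrls, an Fc receptor-like gene of tissue macrophages, was at 436 and 23.1 CPM, Selenop, a selenium carrier, at 1969 and 288, and Stab1, a scavenger receptor, at 232 and 49.4. Igf1, a growth factor gene, was at 234 and 66 CPM. Folr2, a folate receptor, was at 173 and 40.9 CPM and Mrc1, the mannose receptor, at 124 and 58.3, both among the 12. Lyve1, a hyaluronan receptor, was at 44.9 and 24.3, within 2-fold. Timd4, a receptor for the phosphatidylserine of dying cells, at 1.32 and 8.1 CPM, and Cd163, the haemoglobin-haptoglobin receptor, at 19.4 and 19.8, lay under the mean of 20 CPM and were not measured by that filter. Ms4a7, a membrane gene of macrophages, had one of the largest ratios at 2132 CPM [2072 to 2193] and 57.5 [48.4 to 67.8], with 113 to 554 in the P1 pools. C5ar1, the receptor for complement C5a, was at 841 and 117 CPM. Of 17 complement and Fc receptor genes, 9 were higher and 5 lower, and the list includes the 3 C1q chains of the rule.

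Genes of iron and haem handling were higher in 7 of 10 measured, with none lower, and 1 of the 7, Trf, was library-wide. Red cell markers summed to 28.6 CPM in MI and 142 in sham. Hmox1, which breaks down haem, was at 1051 CPM in MI [1009 to 1094] and 128 in sham [114 to 142], and at 149.7 and 51 in fibroblast-rule barcodes. Slc40a1, the iron exporter ferroportin, was at 39.6 and 1.62 CPM. Fth1, the heavy chain of ferritin, was at 14650 and 6856. Ftl1, the light chain, was at 57340 and 5694, but was also 8404 against 3076 in fibroblast-rule barcodes. The MI pool's Ftl1 lay above the 8202 to 9846 CPM of the P1 pools. Ftl1 has near-identical copies in the genome, so its count is uncertain.

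**Figure D3:**
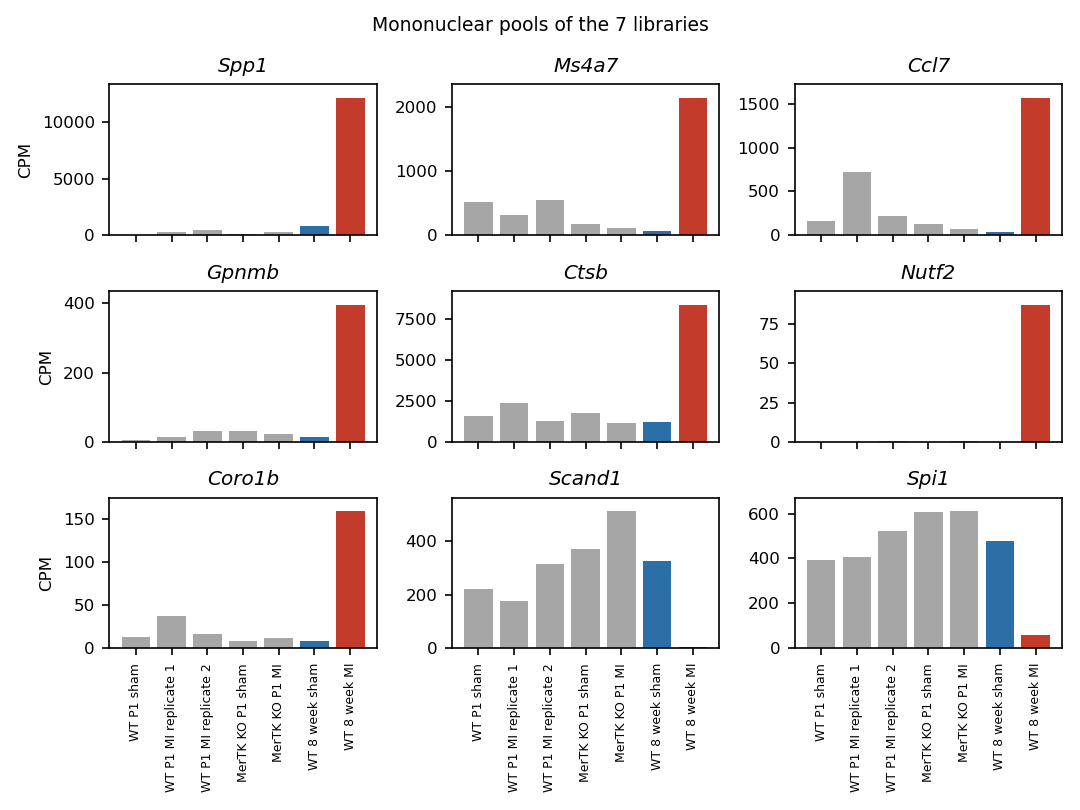
CPM of 9 genes in the mononuclear pools of the 7 libraries, 1 bar a library, with the 8 week sham library in blue, the 8 week MI library in red and the P1 libraries in grey. Spp1, Ms4a7, Ccl7, Gpnmb, Ctsb, Nutf2 and Coro1b are highest, and Scand1 and Spi1 lowest, in the MI library.

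Transcription factor and early response lists held genes at lower levels in the MI pool. Of 18 measured macrophage transcription factors, 8 were at least 2-fold lower and 2 higher, and 3 of the 8 (Cebpd, Klf2 and Klf4) were library-wide. Cebpb, a myeloid factor, was at 210.5 CPM in MI and 1810 in sham, and at 49.9 and 218 in fibroblast-rule barcodes. Spi1, which encodes the lineage factor PU.1, was at 59.5 CPM [49.8 to 70.4] and 477 [450.4 to 505]. The other 5 libraries lay between 396 and 609 CPM, so that the MI library was the one apart. Fibroblast-rule barcodes held 0 Spi1 UMIs in MI, which gives no reading there. Klf2, a shear- and quiescence-linked factor, was library-wide, at 64.3 and 778 CPM in the pool. Tgfb1, the cytokine TGF-beta 1, was at 15 and 219 CPM, below the 225 to 378 of the P1 pools. Of 20 early response and stress genes, 13 were lower and none higher, and 7 of the 13 were library-wide.

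In C1q-high cells alone, the MI library had the lysosomal and chemokine differences and low levels of genes of serous cavity macrophages, the GATA6-dependent cells of the pleural, pericardial and peritoneal spaces. Of 10 measured cavity macrophage genes, 8 were at least 2-fold lower, none higher and none library-wide, with a median of -2.21 against -0.21 for all genes. The library-wide rule was again out of reach for those that fibroblasts do not express. Prg4, encoding the lubricant lubricin, was at 41.7 CPM in MI [32.9 to 52.2] and 667 in sham [623 to 712]. F5, coagulation factor V, was at 13 and 174 CPM, and Icam2, an adhesion molecule, at 51.5 and 252. Gata6 itself was at 3.25 and 26.9 CPM, and Saa3, an acute-phase serum amyloid gene, at 1226 and 3657. Outside the list, Fn1, encoding fibronectin, stood at 1405 CPM in MI and 8067 in sham, and Hopx, a homeodomain gene, at 8.67 and 286. Retnla, a gene of alternative activation, had no UMI in MI C1q-high cells and 80.5 CPM in sham, at least 49.5-fold lower against a floor of 3 UMIs. Prg4 had a UMI in 3.74% of thinned MI C1q-high cells [2.75 to 4.96] and 27.2% of sham ones [24.2 to 30.2], and unthinned in 4.84% and 45.6%. In fibroblast-rule barcodes the thinned share was 4.08% in MI and 4.35% in sham, and in sham lymphocyte-rule barcodes, those with at least 2 UMIs of Cd79a or Cd3e and none of Csf1r, Adgre1 or Ccr2, it was 0.771%. Whether fewer such cells were present or each held less RNA cannot be told apart from summed counts.

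Of the resident macrophage genes in C1q-high cells, 8 of 18 measured were higher and 2 lower, with a median of 0.79. Fcrls, at 505 and 38.4 CPM, and Pf4, at 2354 and 638, were more than 2-fold apart. Lipid-program genes were higher in 10 of 21, with 2 lower, and Apoe was one of the lower ones at 7310 and 15020 CPM. Apoe was lower by more in fibroblast-rule barcodes, at 231 and 3750 CPM, a log2 ratio of -4.0. It missed the library-wide label only because that sham level fell just short of the share the rule asks for. Lysosomal genes were higher in 13 of 27, with none lower and a median of 0.99, and chemokine genes in 11 of 17, with 2 lower. Ccl8 was at 507 CPM in MI C1q-high cells [475 to 540.3] and 14.6 in sham ones [8.78 to 22.8]. MHC class II genes, which present antigen to T cells, were within 2-fold for all 6 measured in C1q-high cells, with Cd74, the invariant chain, at 6034 and 3755 CPM.

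**Figure D4:**
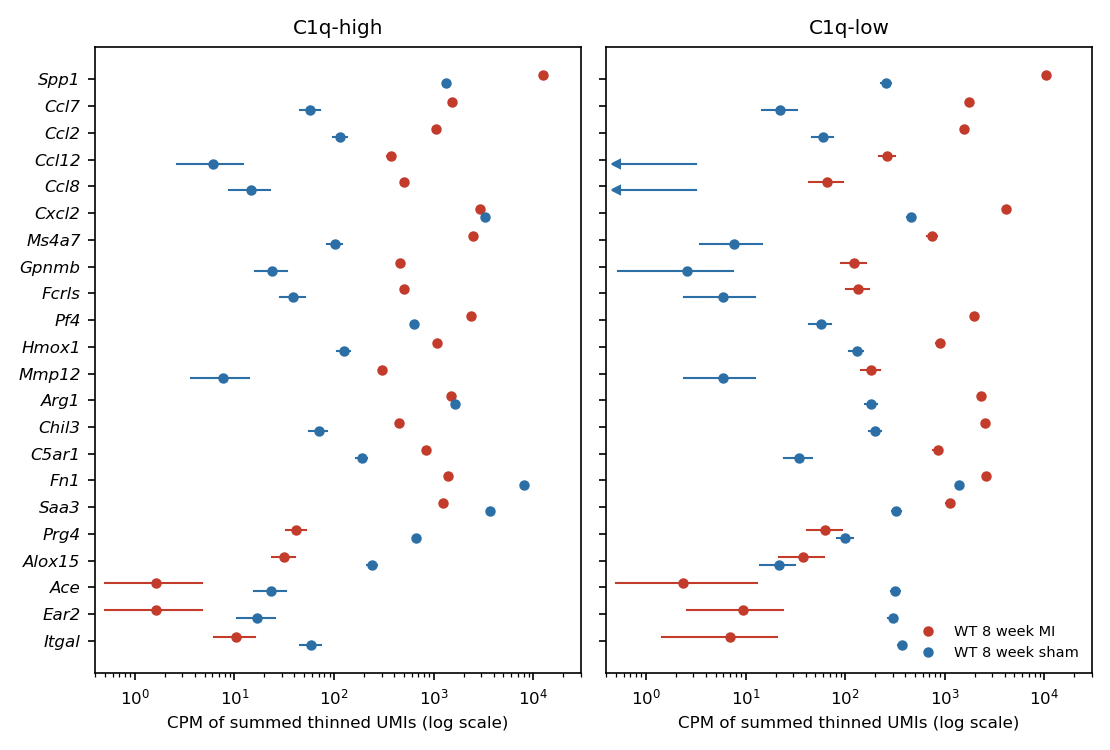
CPM of summed UMIs (horizontal axis, log scale) of 22 genes in C1q-high (left) and C1q-low (right) cells of the MI (red) and sham (blue) library, with exact 95% Poisson intervals; arrows at the left edge mark 0 UMIs. Spp1, Ccl7, Ms4a7 and Mmp12 are far apart in both panels, Prg4 and Alox15 in C1q-high cells, and Ace, Ear2 and Itgal most in C1q-low cells.

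Genes of arachidonic acid metabolism, the subject named in the title of the series, had different counts in the 2 fractions. This pathway turns a membrane fatty acid into prostaglandins through the cyclooxygenases Ptgs1 and Ptgs2 and into leukotrienes and related mediators through the lipoxygenases. In C1q-high cells 9 of 18 measured genes were at least 2-fold lower in MI and 2 higher, none of them library-wide, with a median of -1.02. Here too, genes that fibroblasts do not express could not be called library-wide. Alox15, the 12/15-lipoxygenase and a gene of cavity macrophages, was at 31.4 CPM [23.9 to 40.6] and 240.1 [214 to 268]. Ptgs1 was at 53.1 and 179 CPM, Ptgs2 at 92.1 and 178, and Alox5 at 16.3 and 69. Ltc4s, the leukotriene C4 synthase gene, was at 452 and 1096 CPM. The 2 higher genes were Hpgds, a prostaglandin D synthase, at 112 and 13 CPM, and Pla2g7, the lipase that degrades platelet-activating factor, at 339 and 46.8. In C1q-low cells 6 of 17 were higher and 4 lower: Ltc4s was at 392 and 78.8 CPM (a log2 ratio of -0.20 with the rule applied to thinned counts) and Alox5ap, the 5-lipoxygenase activating protein gene, at 2232 and 1001. Hpgd, which inactivates prostaglandins, was lower in both fractions, at 10.3 and 55.2 CPM in C1q-high and 11.7 and 193 in C1q-low cells. Its P1 pool levels were 39 to 246 CPM.

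C1q-low cells of the sham library held the genes of non-classical monocytes, the patrolling cells of the vessel wall, and those of the MI library held little of them. Of the 11 measured, 10 were at least 2-fold lower and none higher, with a median of -3.88, and 2 of the 10, Ace and Fabp4, were library-wide. Ear2, a ribonuclease gene, was at 9.39 CPM in MI [2.56 to 24] and 301 in sham [270.1 to 334]. Itgal, an integrin of leukocyte patrolling, was at 7.04 and 375 CPM, Adgre4 at 7.04 and 179, Spn, the leukocyte surface mucin CD43, at 11.7 and 190.2, and Eno3, a muscle-type enolase, at 4.7 and 188. Pglyrp1, a peptidoglycan-binding protein gene, was at 35.2 and 362. Ear2 had a UMI in 1.41% of thinned MI C1q-low cells [0.385 to 3.57] and 26.1% of sham ones [23 to 29.3], and unthinned in 2.43% and 46.8%. Sham fibroblast-rule barcodes had one in 0.0621%. T and NK cells also express Itgal and Spn, and their own markers, a separate list, summed to 39.9 CPM in MI C1q-low cells and 346 in sham ones. The P1 pools held 19.1 to 101 CPM of Ear2, above the 3.08 CPM of the whole MI pool.

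Of 14 classical monocyte genes in C1q-low cells, 2 were higher and 3 lower, with a median of 0.19 against -0.01 for all genes. Chil3, a chitinase-like gene of inflammatory monocytes, was at 2502 CPM in MI [2354 to 2657] and 199.7 in sham [175 to 227], whereas Plac8 was at 699.5 and 2029. Arg1, encoding the arginine-consuming enzyme arginase 1, was at 2289 CPM in MI [2147 to 2437] and 183 in sham [159.6 to 209.7]. In C1q-high cells it was at 1492 and 1640, less than 2-fold apart. Cxcl2, a neutrophil attractant, followed the same pattern at 4099 and 459 CPM in C1q-low and 2894 and 3279 in C1q-high cells. Ecm1, a secreted matrix protein gene, was at 1298 and 94.3 in C1q-low and 1043 and 809 in C1q-high cells. The split rests on deposited counts: after thinning, 411 of 869 sham C1q-high cells fell under the cut, and 114 of 1230 in MI. Arg1, Cxcl2 and Ecm1 were higher in the C1q-high cells of sham, so their C1q-low ratios can depend on where the cut falls. Neutrophil markers summed to 526 and 375 CPM in C1q-low cells. Il1b, the cytokine interleukin-1 beta, was at 1223 and 2030 CPM in C1q-low cells, and Il1rn, the antagonist of the same receptor, at 159.6 and 30.9.

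Glycolysis and hypoxia genes were higher in 16 of 22 measured in C1q-low cells, with none lower and a median of 1.57, but 10 of the 16 were library-wide. Over all genes, 310 of the 925 higher in C1q-low cells (33.5%) were library-wide. Eno1, an enolase, was at 2587 and 179 CPM in C1q-low cells and at 966 and 66.3 in fibroblast-rule barcodes, and Pkm, pyruvate kinase, at 2254 and 349 in C1q-low cells and 753 and 237 in fibroblast-rule barcodes. Bnip3, a hypoxia-induced mitochondrial gene, was library-wide too, at 190.1 and 12.8 in C1q-low cells. Matrix and protease genes were higher in 12 of 20 with 1 lower, 6 of the 12 library-wide. C1q-low cells also carried the fibroblast markers, at a sum of 2779 CPM in MI and 2277 in sham, with Col3a1, a fibrillar collagen gene, at 822 and 347. With cells of other lineages left out, the log2 ratio of Col3a1 in C1q-low cells turned from 1.24 to -0.90. The part of fibroblast RNA in the other matrix genes was not tested. MHC class II genes were lower in 6 of 9 measured, with a median of -1.50: H2-Aa was at 1185 and 3344 CPM and H2-Eb1 at 592 and 2510. With the rule applied to thinned counts, H2-Aa turned to a log2 ratio of 0.06 and H2-Ab1 to 0.13 in C1q-low cells. Conventional dendritic cells also express MHC class II genes. Their markers, a separate list, summed to 113 CPM in MI and 428 in sham. Among these, Xcr1, a receptor of cross-presenting dendritic cells, had no UMI in MI against 73.7 CPM in sham.

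**Figure D5:**
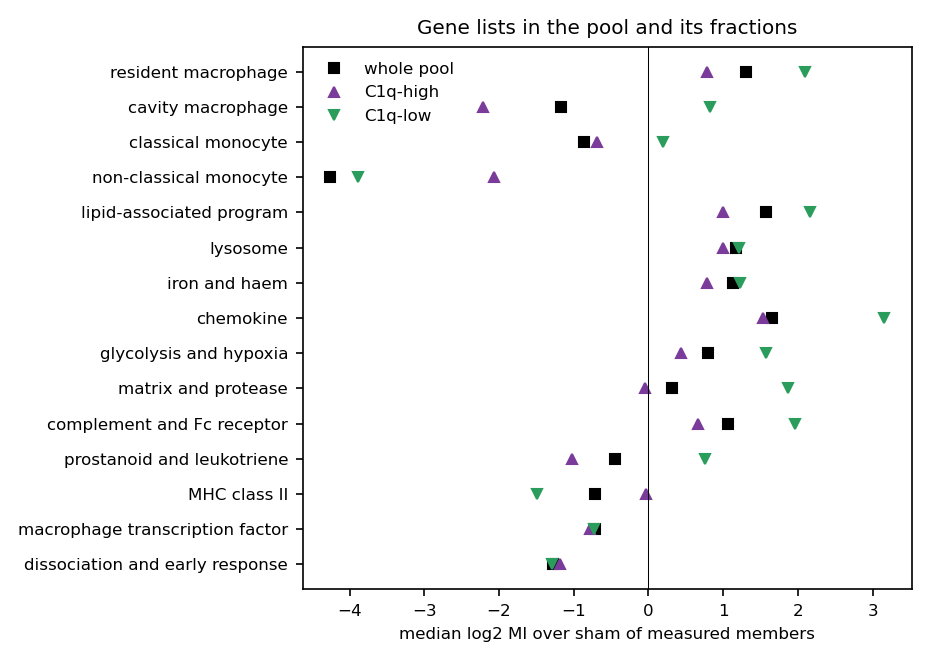
Median log2 ratio of CPM, MI over sham, of the measured members of 15 gene lists (horizontal axis) in the whole pool (squares), C1q-high (upward triangles) and C1q-low cells (downward triangles). Lysosome, lipid-program, iron and chemokine lists lie right of 0 in all 3, non-classical monocyte and early response lists left of 0, and the cavity macrophage list is at -2.21 in C1q-high and 0.82 in C1q-low cells.

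Whole-pool ratios mix the 2 fractions in different shares. When both libraries were weighted to the sham share of C1q-high cells, Spp1 had a log2 ratio of 3.80 in place of 3.88, Ms4a7 4.83 in place of 5.21, and Ctsb 2.49 in place of 2.76. H2-Aa was at -0.96 against -0.99, and Chil3 went from 2.67 to 3.43. Plac8, a classical monocyte gene, went from -2.40 to -1.48. None of these genes changed direction. Other named genes did, among them Col3a1, from -0.30 to 0.81.

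Contrasts of C1q-high over C1q-low cells inside each library do not set one library's counts against the other's. Among 3995 genes with a mean of at least 20 CPM in both contrasts, 368 were at least 2-fold higher and 162 lower in the C1q-high cells of sham, and 94 and 152 in those of MI. In sham, all 8 measured cavity macrophage genes were at least 2-fold higher in C1q-high cells, with a median log2 of 3.37, and in MI 2 were higher and 1 lower, with a median of -0.08. Prg4 had a log2 ratio of 2.73 in sham and -0.62 in MI, and Alox15 3.46 and -0.29. Arg1 was higher in the C1q-high cells of sham, at a log2 ratio of 3.16, and at -0.62 in MI, and Cxcl2 at 2.83 and -0.50. Spp1 was at 2.38 and 0.28. MHC class II genes were at least 2-fold lower in the C1q-high cells of sham for all 6 measured and of MI for none, with medians of -1.43 and -0.30. Ear2 stayed on the C1q-low side in both, at -4.12 and -2.48. The chemokine list had medians of 1.13 in sham and -0.21 in MI. Other lists had the wider contrast in MI. Classical monocyte genes had medians of -0.62 in sham and -1.28 in MI, with 6 and 9 of 14 at least 2-fold lower in C1q-high cells. The fibroblast markers had -1.36 and -3.40, and cell cycle genes 0.07 and 0.75. The MI cut on shallow cells leaves more C1q RNA in the C1q-low side, and its part in these contrasts was not tested.

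The share of cells with a UMI gave the same order for the leading genes. After thinning, Spp1 was seen in 90.2% of MI pool cells [88.5 to 91.6] and 19.3% of sham ones [17.4 to 21.3], and unthinned in 88.9% and 34.4%. Fibroblast-rule barcodes had a UMI of Spp1 in 49.0% in MI and 0.87% in sham, at median depths of 3525 and 8632 UMIs. The MI pool share has to be read beside that 49.0%. Whether free RNA, doublets or expression in those cells gave it was not tested. Ms4a7 was in 64.9% and 5.04% of pool cells against 5.44% and 0% of fibroblast-rule barcodes, where 0 of 1609 sham barcodes allows a share of up to 0.187% (3 counts of the total). Unthinned, the Ms4a7 shares were 70.8% and 14.6%. Gpnmb was in 24.2% and 0.972% of thinned pool cells, and unthinned in 27.5% and 3.45%, against 3.4% and 1.62% of fibroblast-rule barcodes. Of the 18 MI lymphocyte-rule barcodes, 11 had a UMI of Spp1, 4 of Ms4a7 and 3 of Gpnmb. In sham lymphocyte-rule barcodes the shares were 0.988%, 0.0963% and 0.145%. Mki67, a gene of dividing cells, was in 1.19% of thinned MI cells and 4.25% of sham cells, and unthinned in 2.05% and 12.9%. Top2a, another such gene, was closer, in 2.44% and 3.34% of thinned cells, and unthinned in 4.06% and 10.96%. Of 14 measured cell cycle genes, 5 were at least 2-fold higher in the MI pool, all library-wide, and 2 lower. The thinned Mki67 share in fibroblast-rule barcodes, which can hold dividing cells, was 2.72% [0.746 to 6.82] in MI, 4 of 147, and 0.559% in sham.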

How the data were processed

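Single cells of mouse hearts were profiled with a droplet 3-prime kit, per the labels, in 7 libraries. The files hold whole-number UMI counts per gene and barcode, which the authors made with Cell Ranger on GRCm38 (mm10), per the submitters' processing notes and the file headers. The headers give version 6.1.0 for the WT 8 week sham library and 4.0.0 for the WT 8 week MI library, a version that 4 of the other 5 libraries share. Replicates are not pooled in the files. 32285 genes are listed.

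The cell rule was applied to the deposited counts, and each kept cell was thinned without replacement to 1500 UMIs (seed 1), leaving out shallower cells. UMIs were summed per library, scaled to CPM, and compared as log2 ratios with 0.5 UMIs added to each sum. Genes with a mean of at least 20 CPM in the 2 libraries count as measured, and an absolute log2 ratio of at least 1 as apart. Intervals are at 95% and cover counting error only. With 1 library a side no test was made. Doublets were kept in the main values and removed by Scrublet score in an alternative.

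The members and gene lists were chosen with earlier results of these data known. Genes were named from each comparison's 12 largest and 12 smallest log2 ratios, at 100 CPM and 30 UMIs or more in the higher library, and from each of 31 lists' most abundant and most extreme members. Alox5, Cd163, Cxcl14, Folr2, Gata6, Lamp1, Laptm5, Lyve1, Mrc1, Ptgs1, Ptgs2 and Trem2 in the results, and Mertk, Axl, Ifit1, Ifit3, Osm, Il1a and Socs3 in the closing observations, were chosen after their values were seen or lie outside that rule. Gene coordinates come from the GENCODE annotation of GRCm38, and promoters from RefSeq on GRCm38.p6, where 127 of 169 named genes had a promoter. Thinning was tested on simulated data. Python 3.11.15, numpy 2.4.6, scipy 1.17.1, pandas 2.3.3 and scanpy 1.11.5 were used. Alternatives changed the thinning depth, its seed, the depth of the rule, the C1q threshold, the cell filters, doublets, other lineages, the scaling, the filter on low values and the UMIs added.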

Additional observations from a re-analysis of the deposited data

Results flagged for a closer look

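Of the named genes with a mean of at least 20 CPM in both fractions, 3 were at least 2-fold apart in opposite directions in C1q-high and C1q-low cells. Saa3, an acute-phase gene, had a log2 ratio of MI over sham of -1.58 in C1q-high and 1.79 in C1q-low cells, where it was also library-wide. Ltc4s, the leukotriene C4 synthase gene, had -1.28 in C1q-high and 2.31 in C1q-low cells. Col3a1, a fibrillar collagen gene, had -1.58 in C1q-high and 1.24 in C1q-low cells. With 1 library a side, the difference between the fractions was not tested. None of the 3 kept both directions under each alternative run. In C1q-low cells, with the rule applied to thinned counts, Saa3 turned to -0.60 and Ltc4s to -0.20, and with the C1q threshold on thinned counts Saa3 turned to -0.20. With other lineages removed, Col3a1 turned to 0.14 in C1q-high and -0.90 in C1q-low cells, and without doublets to 0.02 in C1q-high cells. The fibroblast markers, Col3a1 among them, summed to 396 CPM in MI and 1175 in sham in C1q-high cells, and to 2779 and 2277 in C1q-low cells.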

How the results depend on the processing

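The number of cells moved with the rule on thinned counts (1205 in MI, 1065 in sham) and with other lineages removed (1028 in sham). The C1q-high share, 81.2% in MI and 52.8% in sham, stayed higher in MI under each alternative. In MI it was 77.3% at 1000 UMIs, 88.3% at 2500, 76.15% without thinning, 76.35% with the rule on thinned counts, 73.7% with the threshold of 10 on thinned counts, 86.2% with a threshold of 5 and 72.8% with 20. In sham it was 34.65% with the rule on thinned counts, 27.8% with the threshold on thinned counts, 55.6% with a threshold of 5, 48.6% with 20 and 55.6% with other lineages removed. Counts of genes apart moved with the filter on low values. At a mean of 50 CPM, 380 were higher and 492 lower in the pool, 333 and 500 in C1q-high, and 551 and 491 in C1q-low cells. With no filter the counts were 2229 and 5148, 2145 and 4710, and 2901 and 3078. Without genes apart the same way in fibroblast-rule barcodes, an alternative chosen after seeing the data, 360, 324 and 615 were higher. In C1q-low cells the direction turned with the rule on thinned counts for Saa3 (-0.60), Ltc4s (-0.20), H2-Aa (0.064) and H2-Ab1 (0.13), and with the threshold on thinned counts for Saa3 (-0.20). Col3a1 turned in C1q-high cells without doublets (0.021) and without other lineages (0.14), and in C1q-low cells without other lineages (-0.90). The cause was not tested. Of 4578 values of 109 genes under 14 settings, 8 turned in this way and 889 moved without turning. Part of the 4578 could not change. The filter of at least 1000 UMIs left all its 327 values as they were, since thinning had already left out cells under 1500 UMIs. Changes of the C1q threshold cannot alter whole-pool values. The doublet step removed the 78 and 1876 highest-scoring barcodes of MI and sham. No paired analysis was possible because each group has 1 library, and for the same reason no library could be left out. Depth limits the MI C1q-low cells most, of which 284 reached 1500 UMIs.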

Other observations

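Other lists of the pool were smaller or mixed. Of 23 measured efferocytosis genes, which take up dying cells, 5 were at least 2-fold higher in the MI pool and 4 lower, with a median log2 ratio of -0.14, and in C1q-high cells 3 were higher and 9 lower. Among these, the receptors Mertk, at 33.1 and 76.7 CPM, and Axl, at 23.3 and 52.9, were lower in the C1q-high cells of MI. Interferon response genes were higher in 5 of 15 and lower in 3, with a median of 0.14. In C1q-high cells Ifit1 was at 43.9 and 8.44 CPM and Ifit3 at 49.9 and 6.14, both antiviral effectors. Of 15 cytokine genes and regulators, 2 were higher and 2 lower in the pool, with a median of -0.24. In C1q-low cells Osm, the cytokine oncostatin M, was at 254 and 54.8 CPM and Il1a at 155 and 16.3, while Socs3, a brake on cytokine signalling, was at 77.5 and 170.5.

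Growth factor genes were higher in 3 of 10 and lower in 3 of the pool, with a median of 0.21. Arginine, nitric oxide and itaconate genes were higher in 2 of 8 and lower in 2, with a median of 0.53. Matrix and protease genes were higher in 7 of 17, of which 4 were library-wide, and lower in 4. Cell cycle genes were higher in 5 of 14, all 5 library-wide, and lower in 2. Mural cell markers summed to 50.6 CPM in MI and 39.3 in sham.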
